A study of Mus musculus with 11 samples.

Results

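A set of 9 genes of myelin and of the oligodendrocytes that make it were followed in RNA that was captured on the tagged ribosomes of endothelium: Mbp, Mog, Mal, Mobp, Mag, Cnp, Hapln2, Cldn11 and Opalin. They were taken by name, as 9 of the 45810 genes listed in every library, and all 9 passed the filter on low values. Endothelial cells make no myelin, so these genes are read here as a gauge of RNA from other cells in the pull-down. Whether endothelium itself expresses any of them, and how RNA from other cells came into the libraries, was not tested. No RNA from before the pull-down was analysed here.

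The pull-down (translating ribosome affinity purification) used mice that carry L10a, a protein of the ribosome, fused to eGFP. The VE-cadherin promoter, which is active in endothelium, drives the fusion, so the tag can reach any cell in which that promoter is active. The hosts were adult C57BL/6 mice, wild type or Eltd1-/-, and the tagged line was crossed with Eltd1-/-. Eltd1, now called Adgrl4, encodes a receptor of the adhesion GPCR family found in endothelium. The 11 libraries came from GL261 tumour of Eltd1-/- mice (knockout tumour, n = 2), GL261 tumour of wild type mice (n = 3), healthy wild type brain (n = 3) and healthy Eltd1-/- brain (knockout brain, n = 3). GL261 is a mouse glioma cell line that was injected into the brain, and the tumours were dissected from it. Per the labels, replicates are separate mouse samples, and nothing in the labels says whether a sample pools animals.

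Myelin is the lipid-rich membrane that oligodendrocytes wrap around axons in the brain and spinal cord. Its tightly packed layers are held together by proteins such as myelin basic protein, while other proteins sit on its outer face, next to the axon or in the junctions that seal it. Oligodendrocytes mature from dividing precursors, and the genes below belong mostly to the mature cell, so they are standard markers of it in brain tissue.

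Levels are given in FPKM, fragment counts scaled to transcript length and to the mapped fragments of the library, with 1 value per gene and library. The files give no counts, so sequencing depth is unknown here, and an exact 0 can be a failed estimate. Summed FPKM per library ran from 477911 to 641665. Wild type tumour 2 stood apart, because it listed 28.0% of the 11399 widely expressed genes (FPKM above 1 in at least 8 libraries) at 0, against 0.14% to 8.40% in the other libraries. Adgrl4 ran from 5.82 to 11.5 FPKM in knockout tumours and from 27.4 to 192 in wild type tumours, and from 21.6 to 23.6 in knockout brains and 82.7 to 166 in wild type brains, so within each tissue the knockout and wild type ranges did not overlap. Of 12 endothelial identity genes none was at 0 in any library, and their summed level was 299.1 to 808.6 in tumours and 1335.8 to 1996.1 in brains. For 5 genes of Schwann cells, the myelinating cells of peripheral nerve, the summed level was 0 to 19.0 FPKM in tumours and 12.4 to 28.2 in brains. Of these Pmp2 was listed at 0 in all 11 libraries, while Pmp22 reached 22.3 in wild type brain 1 and Egr2 reached 16.7 in wild type tumour 3.

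Of the 9 genes, 3 build or organise the compact membrane. Mbp encodes myelin basic protein, which binds the inner faces of the membrane together. Mobp encodes a small basic protein of the same layers and lies at chr9:120149742-120181488 (GRCm38.p6, RefSeq, as for all positions here). Mal encodes a proteolipid that takes part in sorting membrane proteins and lies at chr2:127633226-127656695. A pair of immunoglobulin family proteins stands on the myelin surface: myelin oligodendrocyte glycoprotein, Mog (chr17:37010740-37023398), on the outermost face, and myelin-associated glycoprotein, Mag (chr7:30899175-30914922), facing the axon. Cnp (chr11:100574909-100591875) encodes an enzyme, a cyclic nucleotide phosphodiesterase, found in the cytoplasmic channels of myelin. Cldn11 (chr3:31149920-31164326) encodes the claudin of the tight junctions of myelin. Hapln2 (chr3:88020558-88027511) encodes a link protein of the extracellular matrix at nodes of Ranvier, and Opalin (chr19:41061959-41077113) a membrane glycoprotein of oligodendrocytes.

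The promoters of Mobp, Mog, Mal and Cnp are shown because these genes include those that passed the test in wild type mice and the gene whose level stayed closest between tumour and brain. Each is the 250 bases before a transcription start that RefSeq gives on GRCm38.p6, read in the direction of the gene, and for Cnp that start lies just inside the outer limit of the gene, so the last bases of its window are within the gene: chr9:120149492-120149741 (plus strand) for Mobp, chr17:37023399-37023648 (minus strand) for Mog, chr2:127656696-127656945 (minus strand) for Mal and chr11:100574689-100574938 (plus strand) for Cnp. Capitals mark, on either strand, matches to the Sox motif ACAAAG, the E-box CAGNTG, or the Myrf motif CTGGCAC or CTGGTAC. Sox10, basic helix-loop-helix proteins such as Olig2, and Myrf are the known activators of myelin genes.
Mobp: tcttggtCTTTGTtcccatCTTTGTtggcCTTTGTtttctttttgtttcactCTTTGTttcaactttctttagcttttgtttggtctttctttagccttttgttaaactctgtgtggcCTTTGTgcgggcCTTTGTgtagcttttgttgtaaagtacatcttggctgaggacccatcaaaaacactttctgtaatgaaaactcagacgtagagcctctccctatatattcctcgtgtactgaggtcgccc
Mog: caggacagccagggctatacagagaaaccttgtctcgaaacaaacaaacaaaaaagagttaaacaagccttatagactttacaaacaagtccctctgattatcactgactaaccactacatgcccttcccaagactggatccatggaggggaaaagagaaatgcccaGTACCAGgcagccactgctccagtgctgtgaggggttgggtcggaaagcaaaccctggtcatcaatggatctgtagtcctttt
Mal: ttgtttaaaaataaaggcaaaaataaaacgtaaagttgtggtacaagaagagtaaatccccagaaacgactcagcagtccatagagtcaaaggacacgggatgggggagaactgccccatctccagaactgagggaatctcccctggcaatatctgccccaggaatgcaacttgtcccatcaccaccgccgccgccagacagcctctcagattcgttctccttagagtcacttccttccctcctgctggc
Cnp: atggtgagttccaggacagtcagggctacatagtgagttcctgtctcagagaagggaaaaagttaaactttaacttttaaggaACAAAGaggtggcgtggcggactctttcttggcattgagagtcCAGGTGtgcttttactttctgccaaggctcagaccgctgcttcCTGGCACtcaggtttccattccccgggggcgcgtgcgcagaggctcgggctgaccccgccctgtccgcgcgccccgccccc
The Mobp window held 6 matches to the Sox motif, the Mog window 1 to the Myrf motif, the Cnp window 1 to each, and the Mal window 0. The tables held a window for 8 of the 9 genes (not Mbp). These 8 genes had 10 windows, of which Mag had 3. The Sox motif was in 5 of the 10 windows (4 genes) and in 16.5% of all 32851 windows. The E-box was in 4 of the 10 (4 genes) and in 44.8% of all windows. The Myrf motif was in 5 of the 10 (4 genes) and in 5.93% of all windows. A match is a run of letters in these windows, and 2 of the Mag windows overlapped and held the same Sox and Myrf matches.

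In healthy brain the 9 genes spanned a wide range of levels. By mean FPKM over the 6 brains the order was Mal at 266 ± 117, Cnp at 228 ± 48.4, Mag at 128 ± 29.6, Mbp at 104.5 ± 19.5, Mog at 68.8 ± 24.0, Cldn11 at 64.0 ± 18.2, Mobp at 60.9 ± 20.6, Hapln2 at 22.5 ± 17.0 and Opalin at 6.68 ± 4.85 (SD, n = 6). The ranges of every pair of neighbours in this order overlapped. Cnp exceeded Mag in 6 of 6 brains, whereas Mal exceeded Cnp, Mog exceeded Cldn11, and Cldn11 exceeded Mobp in 3 of 6 each, so these neighbours had no settled order. Among brains the steadiest gene was Mbp, with a coefficient of variation of 18.7%, and the most variable were Opalin at 72.5% and Hapln2 at 75.5%.

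Among the genes of the compact layers, Mbp transcripts stood at 107, 92.6 and 98.7 FPKM in the 3 wild type brains and at 50.5, 30.3 and 78.1 in the wild type tumours. In knockout mice Mbp was at 127, 76.6 and 126 in brain and at 28.3 and 40.9 in tumour. Every tumour thus lay below every brain of its genotype, with wild type tumour 3 the closest.

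Mobp was at 83.7, 39.7 and 56.9 FPKM in wild type brain and at 10.6, 5.32 and 37.7 in wild type tumour. Its knockout brains were at 69.3, 35.0 and 80.9 and its knockout tumours at 4.51 and 11.3. Of the 5 tumours 4 were far below all brains, and wild type tumour 3 came just under the lowest wild type brain.

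Mal, the gene with the highest mean in brain, was at 433, 352 and 178 FPKM in wild type brain and at 12.8, 7.29 and 90.3 in wild type tumour. In knockout mice it was at 296, 118 and 220 in brain and at 35.8 and 47.2 in tumour. The groups did not overlap in either genotype, and wild type tumour 3 again held the highest tumour level.

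Of the surface proteins, Mog was at 99.5, 98.8 and 48.4 FPKM in wild type brain, and at 11.99 and 17.7 in wild type tumours 1 and 3, with tumour 2 listed at 0. Its knockout brains were at 62.3, 52.9 and 50.7 and its knockout tumours at 28.7 and 12.2. Mog was the single gene of the 9 whose highest tumour level was in a knockout library rather than in wild type tumour 3.

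Mag was at 103, 178 and 144 FPKM in wild type brain and at 40.5, 10.5 and 102 in wild type tumour. The knockout values were 106, 105 and 133 in brain and 27.2 and 45.5 in tumour. Wild type tumour 3 missed the lowest wild type brain by little, and the other tumours were well under it.

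Cnp stood apart from the rest. It was at 242, 231 and 288 FPKM in wild type brain, at 230, 162 and 314 in wild type tumour, at 145, 208 and 255 in knockout brain and at 261 and 192 in knockout tumour. Tumour and brain overlapped in both genotypes. Cnp therefore made up 45.7% to 75.2% of the summed level of the 9 genes in tumours and 16.4% to 32.3% in brains.

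Cldn11 was at 72.5, 66.6 and 65.6 FPKM in wild type brain, and at 22.1 and 37.7 in wild type tumours 1 and 3, with tumour 2 listed at 0. In knockout mice it was at 35.4, 89.6 and 54.2 in brain and at 21.7 and 28.6 in tumour. The wild type brains were tightly grouped and the knockout brains were not.

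Hapln2 was at 13.8, 45.8 and 6.44 FPKM in wild type brain and at 42.0, 9.59 and 17.5 in knockout brain. It was at 2.08 and 6.26 in wild type tumours 1 and 3, and was listed at 0 in wild type tumour 2 and in both knockout tumours. Opalin was at 15.9, 7.65 and 3.20 in wild type brain and at 5.97, 3.42 and 3.92 in knockout brain. Its tumour values were 3.77 in wild type tumour 3 and 1.48 in knockout tumour 2, and the other 3 tumours listed it at 0. Hapln2 did not overlap between tumour and brain, whereas for Opalin wild type tumour 3 exceeded the lowest wild type brain.

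**Figure D1:**
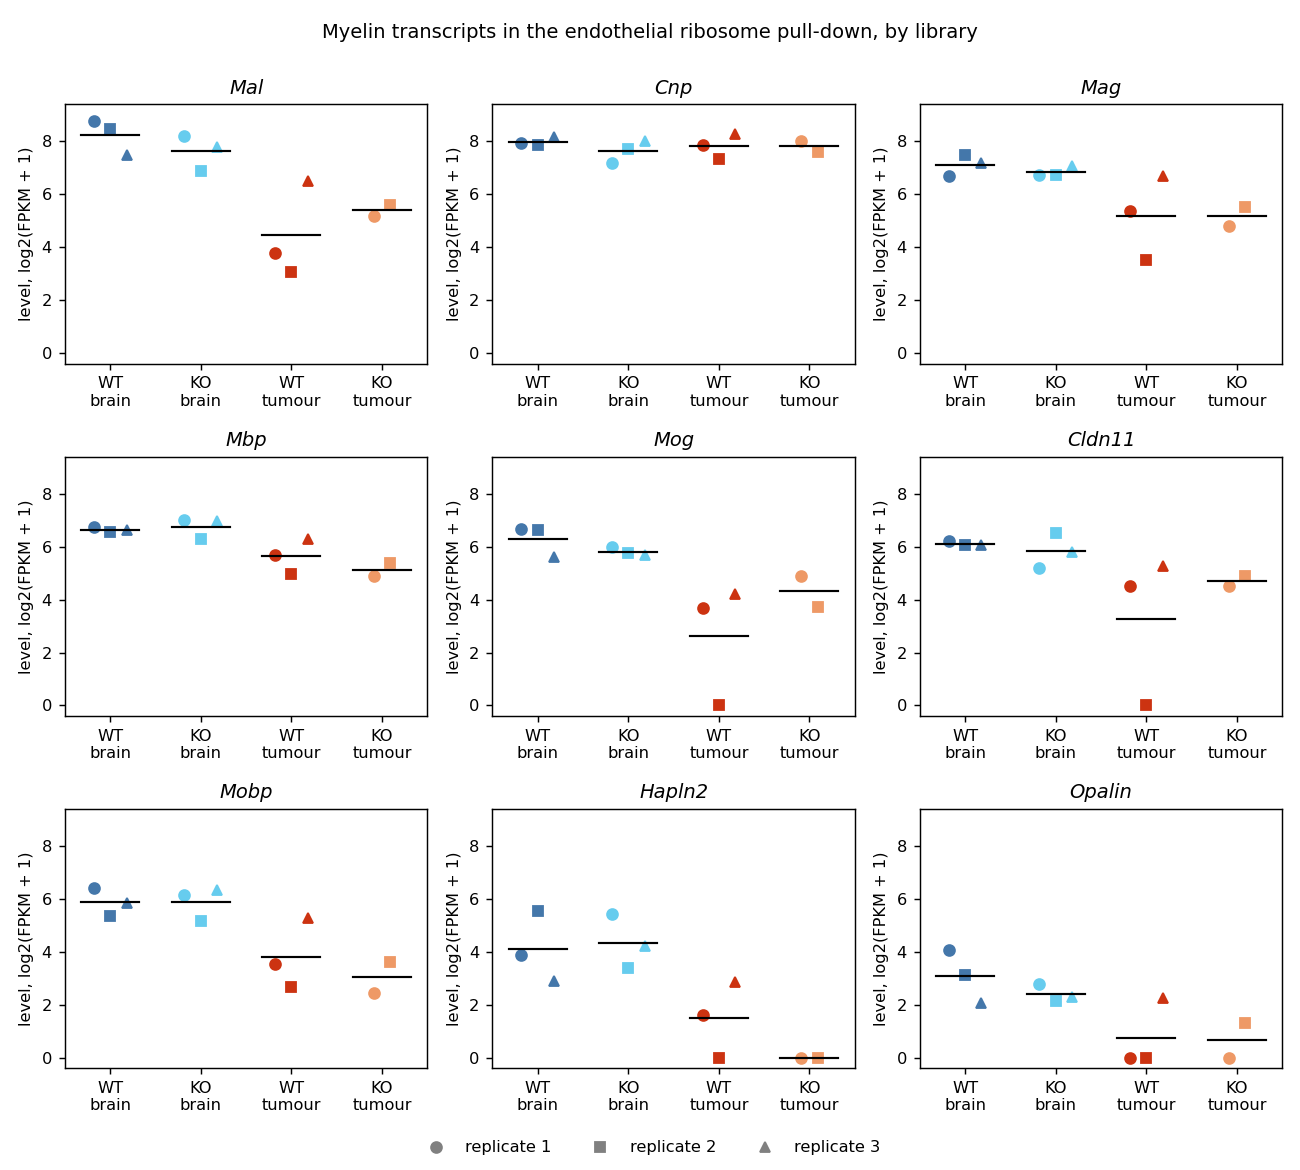
Level of each of the 9 myelin genes on the log2(FPKM + 1) scale in every library, by group (WT, wild type; KO, knockout), with a bar at the group mean and the symbol giving the replicate. In 8 of the 9 genes the tumour means lie below the brain means, and the triangle of wild type tumour 3 is the highest tumour point in every panel but that of Mog; Cnp is level across the 4 groups.

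The comparison of tumour with brain asks how RNA from endothelium of the glioma differs from that of healthy brain. Here it was read for the 9 myelin genes. Differences were tested with limma on log2(FPKM + 1) over all 15605 tested genes, with Benjamini-Hochberg adjustment and a threshold of 0.05. In bulk RNA, fewer cells of a type and less RNA per cell cannot be told apart, and in a pull-down the share of RNA from other cells adds to this.

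In wild type mice 3 of the 9 genes were lower in tumour, 0 were higher and 6 did not pass, where 19.4% of all tested genes passed 11.7% as lower and 7.7% as higher. Mal fell by 3.79 (SE 0.74, adjusted p = 0.00665), Mog fell by 3.66 (SE 0.89, adjusted p = 0.0165) and Mobp fell by 2.05 (SE 0.65, adjusted p = 0.047) on the log2 scale. The differences of Mag, at -1.93 (SE 0.63, adjusted p = 0.0512), and Opalin, at -2.34 (SE 0.79, adjusted p = 0.0577), missed the threshold by little. Hapln2 was at -2.62, Cldn11 at -2.84 and Mbp at -0.99, with adjusted p of 0.0612, 0.0772 and 0.0899. These 5, with the 3 that passed, had an unadjusted p under 0.05, as did 34.4% of all genes. Cnp differed by -0.15, with a 95% interval from -0.85 to 0.54. The median difference of the 9 genes was -2.34 beside -0.26 for all genes tested. Tumour lay wholly below brain for 7 of the 9, and for 19.8% of all genes.

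The count turned on single libraries. Without wild type tumour 3, 8 of the 9 genes passed as lower, all but Cnp, with 25.1% of all genes passing. Without wild type tumour 2, the library with many zeros, only Mal and Mog passed, with 15.8% of all genes passing. Without wild type brain 1 or wild type brain 2 only Mal did, with 12.4% and 12.7% of all genes passing. The sizes turned on wild type tumour 2 as well. Without it the difference of Mog was -2.34 (adjusted p = 0.00941), that of Cldn11 -1.21, that of Mag -1.09, that of Mbp -0.65 and the median of the 9 genes -1.46, beside -0.15 for all genes. Without wild type tumour 3 that median was -3.09, beside -0.35 for all genes. With wild type tumours 2 and 3 both left out, Mal, Mog, Mobp and Mag passed, with 16.4% of all genes passing, and the lone wild type tumour was then assumed to vary like the other groups. Mal passed in each of these fits. With only the wild type libraries in the fit, 0 of the 9 passed by limma (7 at an unadjusted p under 0.05), as did 3.93% of all genes.

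In knockout mice 3 of the 9 genes were lower in tumour, 0 were higher and 6 did not pass, where 7.09% of all genes passed 2.29% as lower and 4.81% as higher. Mobp fell by 2.85 (SE 0.73, adjusted p = 0.0375) and Mbp fell by 1.62 (SE 0.43, adjusted p = 0.0426) on the log2 scale. Hapln2 passed as well (adjusted p = 0.0249), and since both tumours were listed at 0 no fold is given. The other differences were -2.23 for Mal (adjusted p = 0.126), -1.67 for Mag (adjusted p = 0.168), -1.76 for Opalin (adjusted p = 0.24), -1.50 for Mog (adjusted p = 0.387) and -1.13 for Cldn11 (adjusted p = 0.604). Cnp differed by 0.18, with a 95% interval from -0.60 to 0.96. The median over the 9 genes was -1.67, or -1.64 without Hapln2, beside -0.18 for all genes. The 2 tumours lay wholly below the 3 brains for 8 of the 9 genes, and for 28.6% of all genes. At an unadjusted p under 0.05 the count was 5 of 9, beside 24.6% of all genes. Without knockout tumour 1, knockout tumour 2, knockout brain 1 or knockout brain 3, 0 of the 9 passed by limma (3, 5, 3 and 4 at an unadjusted p under 0.05), where 0.954%, 1.56%, 3.62% and 3.7% of all genes passed. Without knockout brain 2 or wild type brain 3 only Hapln2 passed, with 3.64% and 5.89% of all genes passing, and with wild type tumours 2 and 3 both left out 5 passed, as did 17.9% of all genes.

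Mobp passed in both genotypes, but its wild type call held in 5 of 21 alternative fits and was lost when any single knockout library was left out. With library weights Mbp, Mal, Mobp and Mag passed in both, where 31.6% of all genes passed in wild type and 26.4% in knockout mice. The exact permutation test of each gene, two-sided, can give no p below 0.1 at these sample sizes. In each genotype 7 of the 9 genes reached 0.1. That test was run for the 9 genes only, so no share of all genes can be set beside this count.

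**Figure D2:**
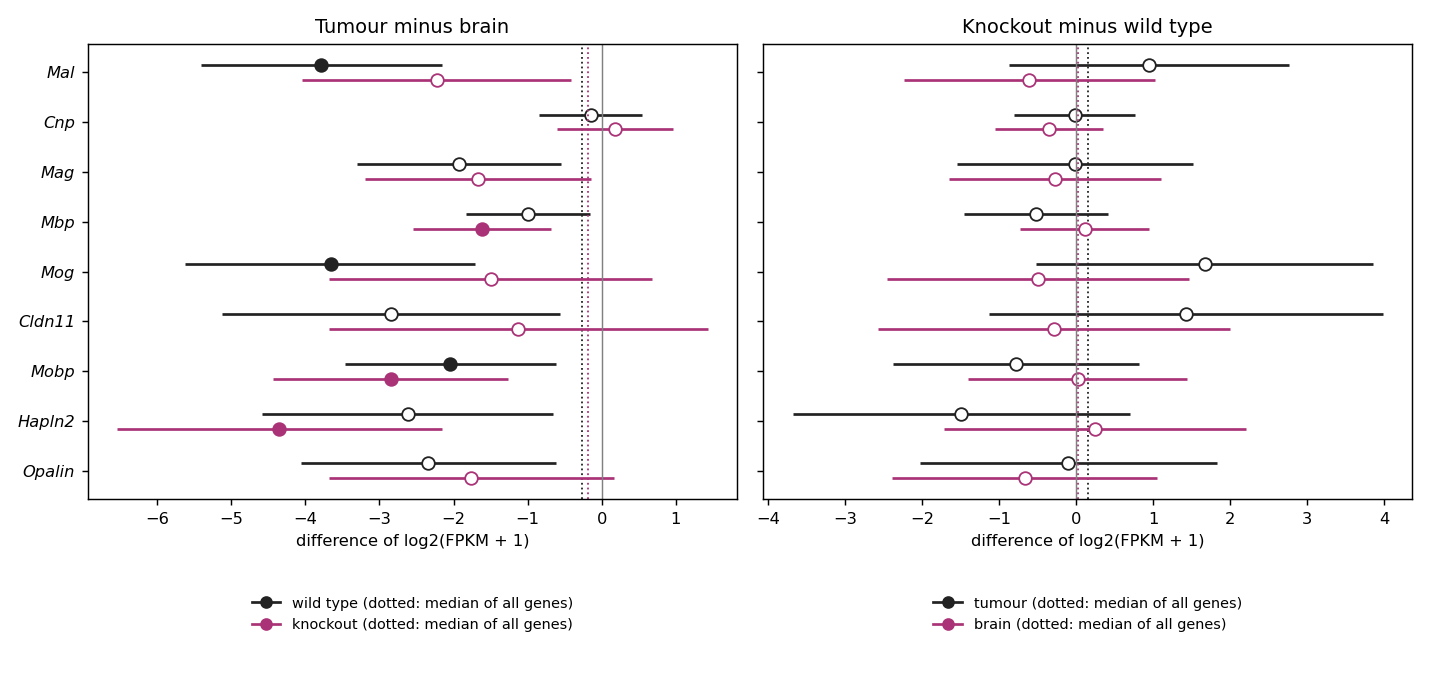
Difference of log2(FPKM + 1) for each myelin gene with its 95% interval, tumour minus brain (left) and knockout minus wild type (right). Filled points passed an adjusted p of 0.05, open points did not, and dotted lines mark the median of all tested genes; on the left 3 points are filled in each genotype and on the right 0. The values of Hapln2 that use the 2 knockout tumours, both listed at 0, are no folds.

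The depth of the fall differed among genes within a tumour. Set against the mean of brain of the same genotype, wild type tumour 1 held 4.00% of the Mal level and 14.6% of Mog, but 28.6% of Mag, 50.8% of Mbp and 90.7% of Cnp. Wild type tumour 3 held 28.1% of Mal, 21.6% of Mog, 62.8% of Mobp, 72.0% of Mag, 78.6% of Mbp and 124% of Cnp. In wild type tumour 2 the figures were 2.27% for Mal, 7.44% for Mag, 8.85% for Mobp, 30.5% for Mbp and 63.8% for Cnp, with the other 4 genes at 0. Mal thus held less of its brain level than Mbp in all 3 wild type tumours. Mog did so in tumours 1 and 3, and its exact 0 in tumour 2 can be a failed estimate. In knockout tumour 1 Mobp held 7.30%, Mal 17.0%, Mag 23.7%, Mbp 25.9% and Mog 51.8%. In knockout tumour 2 Mobp held 18.3%, Mog 22.1%, Mal 22.4%, Mbp 37.3% and Mag 39.6%. Mog was thus among the genes that held least in wild type tumours and, after Cnp, the gene that held most in knockout tumour 1.

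The tumours also differed among themselves across many genes. Over genes with a brain mean of at least 5 FPKM, the median percent of the brain level for the myelin genes was 17.6%, 2.27% and 55.2% in wild type tumours 1, 2 and 3. It was 24.8% and 29.9% in knockout tumours 1 and 2, where Opalin fell under that level in brain and was left out. For 10 neuron markers the medians were 2.56%, 3.95% and 52.7% in the wild type tumours and 8.95% and 27.2% in the knockout tumours. Wild type tumour 3 was the highest tumour for both lists. The summed level of the neuron markers ran from 129.5 to 3200.7 FPKM in tumours and from 4544.1 to 6320.4 in brains, and that of the 9 myelin genes from 215.2 to 687.2 and from 697.6 to 1170.5. For 12 endothelial genes the medians were 37.2%, 41.0% and 19.7% in the wild type tumours, lowest in tumour 3, and 48.2% and 37.8% in the knockout tumours. For 10 astrocyte markers they were 24.5%, 31.6% and 58.0%, and 57.7% and 61.1%. No neuron marker was at 0 in any brain, and 2 were in wild type tumour 2 and 1 each in wild type tumours 1 and 3. The part of these cell types in the difference of the myelin genes was not tested.

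**Figure D3:**
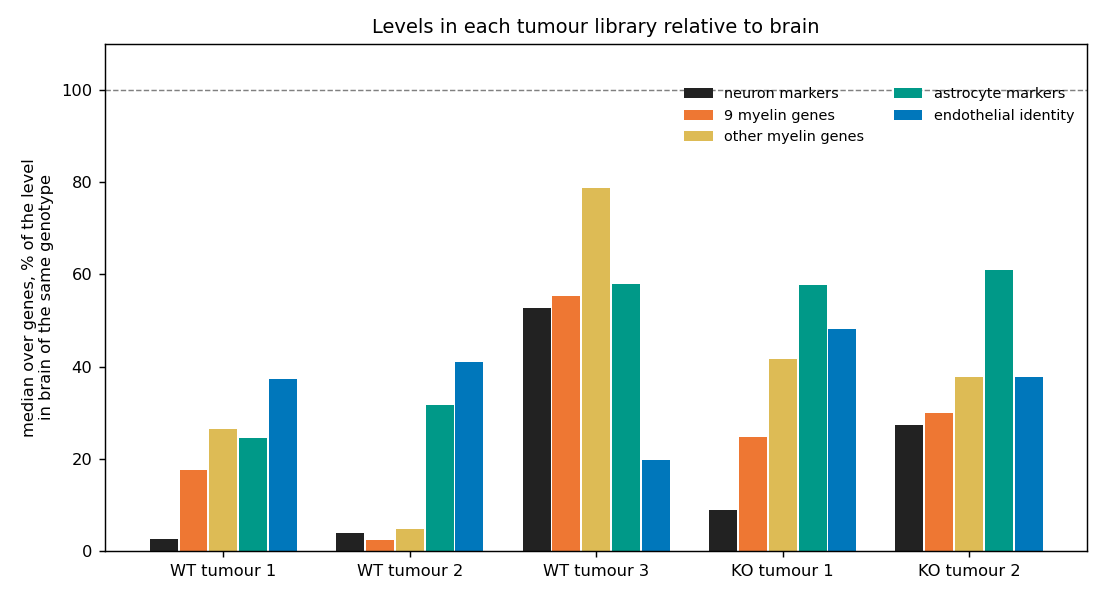
Level in each tumour library as a percent of the mean in brain of the same genotype (WT, wild type; KO, knockout), as the median over the genes of a list with a brain mean of at least 5 FPKM; the dashed line marks 100%. The myelin genes run from 2.27% in wild type tumour 2 to 55.2% in wild type tumour 3, where the neuron markers also stand highest, at 52.7%, and the endothelial genes lowest, at 19.7%.

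The genotype comparison asks what loss of Eltd1 does in each tissue, and for the 9 myelin genes no difference passed. In tumour 0 of 9 passed by limma (0 at an unadjusted p under 0.05), where 0.0192% of all genes passed and 3.11% had such an unadjusted p. Leaving out Hapln2, which both knockout tumours listed at 0, differences ran from -0.78 for Mobp to 1.67 for Mog, and knockout and wild type tumours overlapped for every one of the 9 genes, where 15.4% of all genes did not overlap. The 95% intervals of these 8 genes reached from -2.37 to 3.98, so large differences in either direction were not excluded. Cnp had the narrowest, from -0.80 to 0.76. In brain 0 of 9 passed (0 at an unadjusted p under 0.05), where 0.00641% of all genes passed and 4.35% had such an unadjusted p. Differences ran from -0.67 for Opalin to 0.24 for Hapln2, with intervals from -2.57 to 2.2 over the genes, and the genotypes overlapped for all 9, where 8.52% of all genes did not. The median over the 9 genes was -0.02 in tumour, beside 0.16 for all genes, and -0.29 in brain, beside 0.02. Exact permutation p-values were 0.4 to 1 in tumour and 0.3 to 1 in brain.

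The tumour effect itself was also compared between genotypes, since Mal and Mog passed in wild type mice only and Mbp and Hapln2 in knockout mice only. Of the 9 genes 0 passed by limma (0 at an unadjusted p under 0.05), beside 0.00641% of all genes that passed and 3.18% with such an unadjusted p. The difference of the 2 effects was 2.16 for Mog (SE 1.34, 95% interval -0.77 to 5.09), 1.55 for Mal (SE 1.11, interval -0.89 to 3.99) and -0.63 for Mbp (SE 0.57, interval -1.88 to 0.63). For Hapln2 no value is given, because of its knockout tumours listed at 0. The sets of genes that passed were therefore not shown to differ between genotypes.

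The wider set of 30 myelin and mature oligodendrocyte genes, which leaves out the 9, held genes that passed in both directions. Of 29 tested (Ninj2 was listed at 0 throughout), 7 were lower and 3 higher in wild type tumour and 19 did not pass. Over all genes 11.7% passed as lower and 7.7% as higher there. In knockout mice 3 were lower, 2 were higher and 24 did not pass, where 2.29% of all genes passed as lower and 4.81% as higher. The medians were -1.34 and -1.29 on the log2 scale, beside -0.26 and -0.18 for all genes. Gal3st1, the enzyme that makes sulfatide, a myelin lipid, fell by 2.52 (SE 0.57, adjusted p = 0.012) in wild type mice.

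Against that direction, Anln, a protein of cell division that also organises septins in myelin, was at 6.63, 8.10 and 6.11 FPKM in wild type brain and at 60.6, 36.7 and 65.3 in wild type tumour. It rose by 2.76 (SE 0.45, adjusted p = 0.00252), and by 2.62 (adjusted p = 0.0101) in knockout mice. Gjc3, a connexin of oligodendrocytes, rose by 2.87 (SE 0.59, adjusted p = 0.00855), from 5.11, 18.4 and 8.53 in wild type brain to 74.8, 147 and 37.9 in wild type tumour, and by 3.56 (adjusted p = 0.00903) in knockout mice. Both were higher in each tumour than in every brain. The third to rise in wild type mice was Plekhb1, named after its values were seen, by 1.54 (adjusted p = 0.0183).

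Among the transcription factors of the lineage the members that passed were higher in tumour. Of 11 tested, 3 rose, 0 fell and 8 did not pass in wild type mice, and 2 rose, 0 fell and 9 did not pass in knockout mice. As higher, 7.7% and 4.81% of all genes passed. The list as a whole was not higher, with medians of 0.15 and -0.14 beside -0.26 and -0.18 for all genes. In wild type mice 1 factor passed as lower without wild type tumour 3 or with library weights (25.1% and 31.6% of all genes passing). With library weights 2 did so in knockout mice (26.4%). Olig2, which specifies the lineage, was at 3.42, 7.82 and 5.34 FPKM in wild type brain and at 110, 79.5 and 55.9 in wild type tumour. It rose by 3.67 (SE 0.52, adjusted p = 0.0012), and by 3.81 (adjusted p = 0.00331) in knockout mice. Sox10, the factor that drives myelin genes, was at 22.8, 14.9 and 12.4 in wild type brain and at 169, 109 and 137 in wild type tumour, and rose by 3.00 (SE 0.46, adjusted p = 0.00185), and by 3.57 (adjusted p = 0.00248) in knockout mice. Tumour and brain did not overlap for either gene. Olig1, a relative of Olig2, rose by 1.74 (adjusted p = 0.0289) in wild type mice and differed by 1.76 (adjusted p = 0.0738) in knockout mice. Myrf, the factor that switches on the mature myelin genes, named after its values were seen, differed by 0.45 (adjusted p = 0.5) and 0.40 (adjusted p = 0.666).

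Of 12 precursor genes 2 rose, 0 fell and 10 did not pass in wild type mice, and 3 rose, 0 fell and 9 did not pass in knockout mice. As higher, 7.7% and 4.81% of all genes passed. The list medians were -0.44 and 1.33, beside -0.26 and -0.18 for all genes. Bcas1, a mark of newly forming oligodendrocytes, was at 6.70, 17.6 and 8.98 FPKM in wild type brain and at 162, 117 and 112 in wild type tumour, a rise of 3.52 (SE 0.46, adjusted p = 0.000762), with 2.98 (adjusted p = 0.00595) in knockout mice. Cspg4, the NG2 proteoglycan of precursors and also of pericytes, rose by 2.08 (SE 0.53, adjusted p = 0.0202) and by 3.21 (adjusted p = 0.0089). Lhfpl3 differed by -1.72 (adjusted p = 0.105) in wild type mice. In knockout mice Gpr17, a receptor of maturing precursors named after its values were seen, rose by 2.30 (adjusted p = 0.0327). Without wild type tumour 2, or without wild type tumour 3, Sox10, Olig2, Bcas1, Cspg4, Anln and Gjc3 still passed as higher in wild type mice. Cspg4 was lost there without wild type tumour 1 or wild type brain 3, and Cspg4 and Gjc3 with only the wild type libraries in the fit. In knockout mice all 6 were lost without knockout tumour 1, and all but Sox10 and Olig2 without knockout tumour 2. The part of GL261 cells in these levels was not tested.

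**Figure D4:**
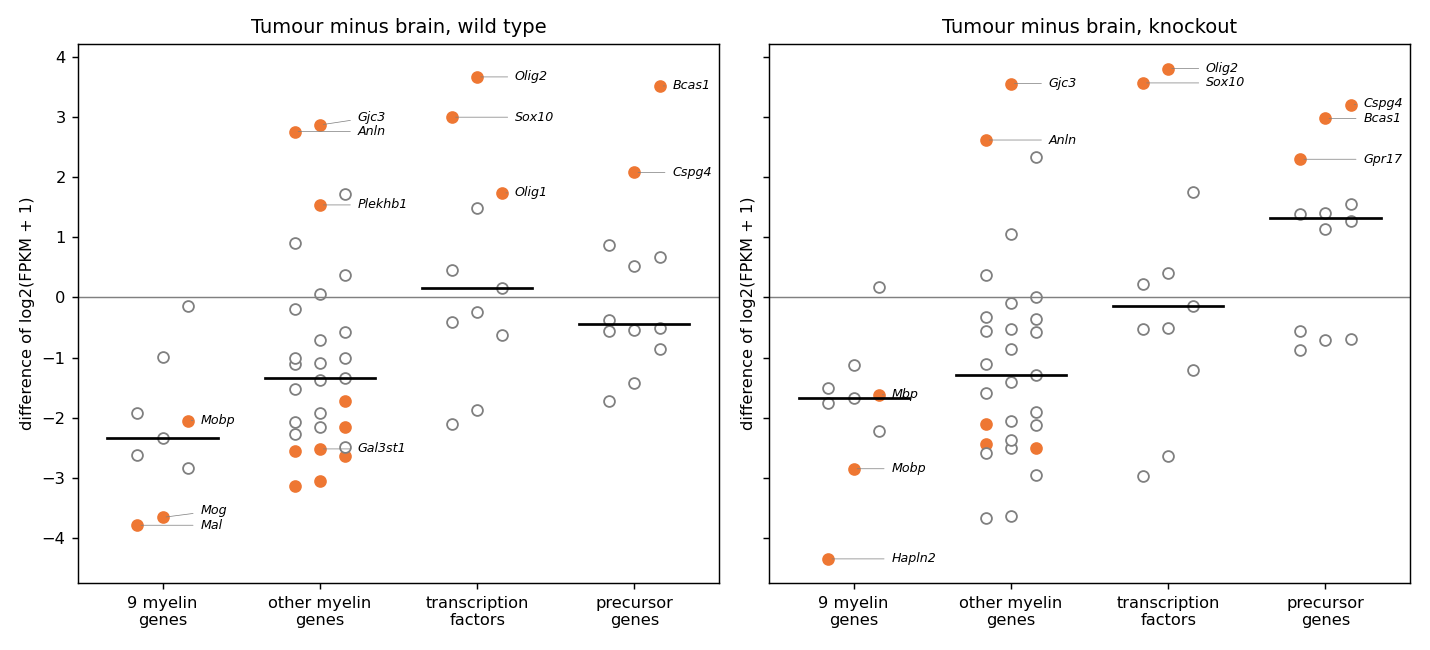
Tumour minus brain difference of log2(FPKM + 1) for each tested gene of 4 lists, in wild type (left) and knockout (right) mice; filled points passed an adjusted p of 0.05, those described in the text are named, and black bars are list medians. The 9 myelin genes have medians of -2.34 and -1.67, and the other myelin genes -1.34 and -1.29. Medians are 0.15 and -0.14 for the transcription factors and -0.44 and 1.33 for the precursor genes, beside -0.26 and -0.18 for all genes. Single genes of these 2 lists, Olig2, Sox10, Bcas1 and Cspg4, lie above 2 in both panels, and other genes of both lists lie below 0. The knockout value of Hapln2 is no fold.

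Markers of the other cell types that the tissue could hold moved as follows. Over all genes 11.7% passed as lower and 7.7% as higher in wild type mice, and 2.29% and 4.81% in knockout mice. Of 10 neuron markers 9 were lower in wild type tumour and 1 in knockout tumour, with 0 higher in either. Among the 9 was Tubb3, named after its values were seen, whose call rests on exact zeros. It was listed at 0 in wild type tumours 1 and 3, while tumour 2, at 293 FPKM, exceeded every wild type brain (225, 270 and 284). Rbfox3, the nuclear protein NeuN, fell by 4.91 (adjusted p = 0.0061), Slc17a7, a vesicular glutamate transporter, fell by 4.15 (adjusted p = 0.00876) and Syt1, the synaptic vesicle calcium sensor, fell by 3.18 (adjusted p = 0.00982) in wild type mice. These counts turned on the libraries fitted. The share of all genes that passed is given in brackets. In wild type mice the neuron count was 4 without wild type tumour 2 (15.8%) and 5 without wild type brain 3 (14.8%). It was 3 without wild type tumour 1 (11.8%), wild type brain 1 (12.4%) or wild type brain 2 (12.7%). With only the wild type libraries it was 0 by limma (3.93%). In knockout mice it was 9 without wild type tumour 3 (12.2%) or with only the knockout libraries (18%). It was 0 there without any single knockout brain (3.62% to 3.7%) or any single wild type brain (5.89% to 7.11%). The 9 and the 1 therefore do not show a difference between genotypes. Of 10 astrocyte markers 5 fell and 1 rose in wild type mice and 0 passed in knockout mice. The glutamate transporter Slc1a2 fell by 4.32 (adjusted p = 0.0111), the aldolase Aldoc fell by 1.36 (adjusted p = 0.0216) and the connexin Gja1 fell by 1.40 (adjusted p = 0.0238), and the gene that rose was Gfap, named after its values were seen.

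The lists below stand beside the same shares of all genes, 7.7% higher and 11.7% lower in wild type mice and 4.81% and 2.29% in knockout mice. Of 10 microglia and macrophage markers 3 rose in wild type mice and 2 in knockout mice, with 0 lower. The complement genes C1qc and C1qa rose by 3.61 (adjusted p = 0.0109) and 1.78 (adjusted p = 0.0441) in wild type mice, as did Tmem119, a microglial membrane protein, by 3.49 (adjusted p = 0.0315). Of the 12 endothelial identity genes 7 fell in wild type mice and 3 in knockout mice. The angiopoietin receptor Tek fell by 2.96 (adjusted p = 0.000609), the VEGF receptor Flt1 fell by 2.64 (adjusted p = 0.00107) and the tight junction gene Cldn5 fell by 2.02 (adjusted p = 0.002) in wild type mice. Of 5 tested fibroblast markers the collagen gene Col3a1 rose, by 3.46 (adjusted p = 0.00268) in wild type and 4.66 (adjusted p = 0.00178) in knockout mice. None of 8 tested mural cell markers and none of 3 tested Schwann cell genes passed in either genotype. None of the tested genes of these lists passed between genotypes in tumour or in brain, where 0.0192% and 0.00641% of all genes passed.

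The genes whose pattern over the 11 libraries was most like that of the 9 were found by the root mean square difference between a gene's centred log2 profile and the mean profile of the 9, among 10036 genes with a mean of at least 5 FPKM in brain. They were Pip4k2a at 0.25, Fam135b and Zhx3 at 0.27, Coro2a at 0.27, Nyap1 and Smarca2 at 0.28, Cables1 at 0.29 and Arhgef3 at 0.30 log2 units, where the median gene was at 1.28. Of the 9 themselves Mag was nearest at 0.32, Mobp at 0.52 and Opalin at 0.55 came next, and Hapln2 at 1.03 and Cnp at 1.18 were farthest. In all, 12 genes outside the 9 were nearer than Mag. Pip4k2a, a phosphoinositide kinase, was at 119, 109 and 56.6 FPKM in wild type brain and at 23.9, 6.50 and 37.7 in wild type tumour, with 106, 67.1 and 104 in knockout brain and 18.1 and 17.0 in knockout tumour. Smarca2, a chromatin remodelling ATPase, was at 234, 263 and 209 in wild type brain and at 55.2, 26.3 and 143 in wild type tumour. Both were lowest in wild type tumour 2 and, among tumours, highest in wild type tumour 3. The measure describes these 11 libraries, which share the zeros of wild type tumour 2, and carries no test.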

How the data were processed

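The authors deposited FPKM values, 1 file per library with 46073 entries, per the file headers. TopHat2 2.1.1, Cufflinks 2.2.1 and the build GRCm38 are named, per the submitters' processing notes. What each did, which gene annotation was used and whether strand counted are not stated there, so genes that overlap another on the opposite strand are uncertain. Per the labels' protocols, RNA with an integrity number above 7 was depleted of ribosomal RNA and prepared with a stranded kit, and 3 mouse samples a group were selected; 2 knockout tumours were analysed here.

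Entries of 207 repeated symbols (470 entries, none of the 9 genes) were summed, which gave 45810 genes. With limma 3.58.1 in R 4.3.3, log2(FPKM + 1) of the 15605 genes at 1 FPKM or more in at least 2 libraries was fitted with 4 group means over 11 libraries (7 residual degrees of freedom, eBayes with trend). The 5 contrasts were adjusted by Benjamini-Hochberg separately, and log2 differences on this scale understate changes of low genes. The fit was tested on simulated data, drawn as normal values around the mean of each gene. Those data held no exact zeros and no library like wild type tumour 2, so that test cannot show how the fit handles them. Genes and the 11 lists were chosen with earlier results of these data known, so no list serves as independent support. Named genes were the 9, the 3 of smallest wild type p in each other list and the 8 most alike, and others are marked where they occur; single values of 2 list genes are withheld and not reported here. The lists were the 9 genes, other myelin genes, lineage transcription factors, precursor genes, and markers of Schwann cells, neurons, astrocytes, microglia and macrophages, mural cells, fibroblasts and endothelium. Alternatives covered the pseudocount, filter, scaling, libraries fitted, library weights, repeated symbols and single libraries. Leaving out wild type tumours 2 and 3 together was added after seeing the data. In the main fit the limma p-values set a difference of group means against the spread between samples within groups, pooled over all 4 groups. A p-value for 1 genotype thus also depends on the libraries of the other.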

Additional observations from a re-analysis of the deposited data

How the results depend on the processing

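The counts of myelin genes lower in tumour were the least stable results. The share of all genes that passed, given in brackets, moved as well. In wild type mice the count of 3 (19.4%) became 1 with a pseudocount of 0.1 (13.6%) and 7 with library weights (31.6%). With only the compared groups in the fit it was 0 (3.93%), with 7 of the 9 at an unadjusted p under 0.05. It ran from 1 to 8 when single libraries were left out (11.8% to 25.1%). In knockout mice the count of 3 (7.09%) became 1 with a pseudocount of 0.1 (4.55%) and 1 with upper quartile scaling (5.32%). It became 5 with only the compared groups (18%) and 5 with library weights (26.4%). When single libraries other than a knockout tumour were left out, it ran from 0 to 4 (3.62% to 12.9%). Of 189 recomputed differences in each genotype, 1 changed sign in wild type and 2 in knockout mice, all of them Cnp when a library was left out (-0.39 to 0.09 and -0.04 to 0.40). Over all genes the wild type count of 3024 ran from 614 with only the compared groups to 4930 with library weights. It was 1923 with upper quartile scaling, and 1817 to 3886 when single libraries were left out. The knockout count of 1107 became 710 with a pseudocount of 0.1, 1823 with quantile normalization, 2803 with only the compared groups, 4126 with library weights and 2756 without wild type tumours 2 and 3, and ran from 147 to 2006 when single libraries were left out. Of all calls in wild type mice 60.3% were lower, against 47.2% with upper quartile and 47.8% with quantile scaling, and in knockout mice 32.2%, against 14.6% and 36.7%. These scalings moved the median of all genes from -0.26 to -0.15 and 0.01 in wild type, while that of the myelin genes went from -2.34 to -2.13 and -1.79. With a pseudocount of 0.1 the latter was -3.85, and it ran from -3.09 to -1.46 when single libraries were left out. So left out, single libraries also moved the wild type counts of lower genes among the other myelin genes (7) from 2 to 14, the astrocyte markers (5) from 1 to 6 and the endothelial genes (7) from 5 to 9, and that of higher microglia and macrophage markers (3) from 1 to 4. No gene of the lists that passed changed sign under any alternative. Between genotypes 0 of 9 genes passed under each alternative. Small differences changed sign there. In tumour Mag was at 0.27 and Cnp at 0.30 with upper quartile scaling, Cnp at 0.07 with quantile normalization, and Opalin at 0.23 with a pseudocount of 0.1, 0.38 with library weights and 0.66 without wild type tumours 2 and 3. Leaving out single libraries gave -0.85 to 0.72 for Mag, -0.26 to 0.21 for Cnp, -0.21 to 2.43 for Cldn11 and -0.75 to 0.66 for Opalin in tumour. In brain it gave -0.02 to 0.34 for Mbp, -0.24 to 0.38 for Mobp, -0.37 to 0.95 for Hapln2 and -0.63 to 0.03 for Cldn11, and for the difference of the tumour effect -0.58 to 1.00 for Mag and -0.08 to 1.33 for Opalin. The cause of these shifts was not tested, beyond the smaller number of libraries where some were left out. No paired analysis was possible because the replicate numbers only name the samples and pair none across groups. Depth is unknown, so zeros and low values, as of Hapln2 and Opalin, carry no counting limit.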
